A study of Homo sapiens with 2 samples.

Results

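The 41 genes described here encode the enzymes that make fatty acids, join them to coenzyme A, and break them down by beta-oxidation, together with 2 proteins that coat lipid droplets. They were taken by gene name from the deposited gene table, in which each of the 41 was found on 1 row, out of 28615 gene symbols in all. By role, 17 serve synthesis, 4 activation, 18 oxidation and 2 the droplet coat. RNA sequencing was done on HCT116 cells, a human line derived from a colorectal carcinoma. One library was labelled as an SRD5A1 knockdown and carried the tag "Dox" (54740670 counts), and the other was labelled as a control and carried the tag "KD" (41814981 counts). The labels give neither the knockdown reagent nor the meaning of either tag, and name no further treatment. SRD5A1 encodes steroid 5-alpha reductase type 1.

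In the cytosol, ATP citrate lyase and acetyl-CoA synthetase provide acetyl-CoA, acetyl-CoA carboxylase turns it into malonyl-CoA, and fatty acid synthase joins these units into palmitate. Desaturases and elongases then reshape the chain, and many of these genes are known targets of the SREBP transcription factors. For oxidation, an acyl-CoA synthetase activates the fatty acid, the carnitine shuttle carries it into the mitochondrion, and a cycle of dehydrogenation, hydration, a second dehydrogenation and thiolysis shortens it. Malonyl-CoA, the product of the carboxylase, is known to inhibit the carnitine shuttle. Colorectal tumours are known to express fatty acid synthase strongly.

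With 1 library in each group there was no replicate, and no test between the conditions was possible. Levels are given in FPKM (fragments per kilobase of exon, scaled to the size of the library), which divide by the union of a gene's exons and so place genes with many long transcripts low beside others. Differences are in log2(FPKM + 1) in the knockdown library minus the control library. Adding 1 makes the difference of a low gene too small, so a gene's share of all counts in the knockdown library over its share in the control library (the CPM ratio) is given beside it with an exact Clopper-Pearson 95% interval. These intervals cover counting error only. In bulk RNA, fewer cells of a kind and less RNA per cell cannot be told apart. Chromosome positions are those of the deposited table, in which 69.2% of the rows found in GENCODE 29 (GRCh38) have the position given there. Genes with a mean of at least 1 FPKM were taken as expressed. A difference of at least 0.5 is called higher in the knockdown library, one of -0.5 or below is called lower, and a size of 1 or above is called 2-fold.

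SRD5A1 itself was at 6.25 FPKM in the knockdown library and 10.8 FPKM in the control library, a CPM ratio of 0.581 (0.554 to 0.609). Its difference was -0.70, and 16.3% of all expressed genes lay at -0.5 or below. The share of counts on mitochondrially encoded genes was 12.8% in the knockdown, against 18.3% in the control library. Over the 10143 expressed genes the differences had a median of 0.30, which was not subtracted. The summed level of the epithelial markers was 1671 FPKM in the knockdown and 1128 FPKM in the control library, led by the keratins KRT19, KRT8 and KRT18, with 8 of 10 expressed. Of the same list, CLDN7 was at 62.4 FPKM in the knockdown and 110.6 FPKM in the control library, EPCAM was at 30.2 FPKM in the knockdown and 39.7 FPKM in the control library, and VIL1 was at 4 counts in the knockdown, against 0 in the control library. CDH1 was at 18.3 FPKM in the knockdown, against 9.62 FPKM in the control library, and CLDN3 at 63.3 FPKM in the knockdown, against 27.0 FPKM in the control library. CDX2 was at 7.00 FPKM in the knockdown, against 0.767 FPKM in the control library, and so reached 1 FPKM in the knockdown library only. Adipocyte markers were examined as well, since the labels' protocol names adipose material. Of the 8, values were found for 4. The perilipin PLIN1 had 0 counts in the knockdown, against 61 in the control library. CIDEC had 16 counts in the knockdown and none in the control library. PPARG was at 5.997 FPKM in the knockdown, against 2.23 FPKM in the control library, and GPD1 at 2.30 FPKM in the knockdown, against 0.258 FPKM in the control library. Their sum was 8.42 FPKM in the knockdown and 2.81 FPKM in the control library. The sum of the 8 immune and stromal markers was 3.97 FPKM in the knockdown and 12.0 FPKM in the control library, led by CD68 and COL1A1, with CD3E and DCN at 0 counts in both libraries. The part of these markers in the results below was not tested.

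The windows around the annotated start sites show how these genes are arranged and which short motifs they hold. The sequences come from RefSeq (GRCh38.p14) and run from 250 bases before to 50 bases after the start site. They are printed 5′ to 3′ on the strand of the gene, and 37 of the 41 members were matched. Capitals mark the letters CCAAT, to which the factor NF-Y binds, and GGGCGG, to which Sp1 binds, on either strand. ACLY and SCD are shown because they are strongly expressed synthesis genes that stood on opposite sides of the comparison, and HADHA and HADHB because they form the subunits of 1 enzyme and are read in opposite directions from a shared region. The windows lie at chr17:41918973-41919272 (minus strand), chr10:100346983-100347282 (plus strand), chr2:26244583-26244882 (minus strand) and chr2:26244689-26244988 (plus strand).
ACLY: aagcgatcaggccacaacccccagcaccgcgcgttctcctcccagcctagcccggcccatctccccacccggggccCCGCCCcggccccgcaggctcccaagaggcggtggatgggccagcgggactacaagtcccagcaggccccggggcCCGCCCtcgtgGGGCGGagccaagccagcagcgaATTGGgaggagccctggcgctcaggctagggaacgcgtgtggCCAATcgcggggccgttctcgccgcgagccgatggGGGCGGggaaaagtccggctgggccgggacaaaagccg
SCD: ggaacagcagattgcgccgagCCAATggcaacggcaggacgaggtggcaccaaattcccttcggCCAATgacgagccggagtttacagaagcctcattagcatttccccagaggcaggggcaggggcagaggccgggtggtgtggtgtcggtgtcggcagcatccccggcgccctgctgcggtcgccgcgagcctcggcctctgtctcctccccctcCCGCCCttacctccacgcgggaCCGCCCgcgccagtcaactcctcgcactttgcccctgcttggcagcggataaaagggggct
HADHA: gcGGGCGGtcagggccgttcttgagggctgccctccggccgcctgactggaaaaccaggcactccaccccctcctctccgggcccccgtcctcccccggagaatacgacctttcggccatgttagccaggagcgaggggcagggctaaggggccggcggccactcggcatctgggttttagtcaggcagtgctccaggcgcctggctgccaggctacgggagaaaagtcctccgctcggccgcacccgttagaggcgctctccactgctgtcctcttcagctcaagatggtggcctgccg
HADHB: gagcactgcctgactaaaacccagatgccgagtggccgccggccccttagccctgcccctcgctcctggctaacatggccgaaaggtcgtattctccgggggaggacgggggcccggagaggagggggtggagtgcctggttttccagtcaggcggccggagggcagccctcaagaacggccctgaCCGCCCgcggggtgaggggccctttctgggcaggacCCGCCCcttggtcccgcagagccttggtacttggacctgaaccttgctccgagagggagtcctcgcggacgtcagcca

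The start sites of HADHA and HADHB lie 307 bases apart, and their windows share 194 bases. CCAAT was found in the windows of 11 of 16 matched synthesis genes and 3 of 15 matched oxidation genes, and in 39.7% of all 27305 symbols with a window. The windows of ACLY and SCD each hold it 2 times, while none of the windows of HADHA, HADHB, ACSL5 and CPT1A does. GGGCGG was common, with 15 of 16 synthesis and 13 of 15 oxidation genes, and 48.3% of all symbols. CACGTG, an E-box, was found for 3 of the 37 (ELOVL4, ELOVL5 and PLIN2), beside 8.77% of all symbols. TCACNCCAC, a form of the sterol regulatory element, was found for ACSL1 alone, beside 1.39% of all symbols. Genes with CCAAT stood on both sides of the comparison, ACLY among the higher and SCD and ELOVL5 among the lower.

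Of the 41 genes, 34 were expressed. Among them 15 were higher in the knockdown library, against a background of 40.8% of all expressed genes, and 4 were lower, against 16.3%. At least 2-fold higher were 8, against 20.9%, and none was 2-fold lower, against 6.83%. The shares of all expressed genes called higher and lower were 28.02% and 26.6% with TMM (edgeR's trimmed mean of log ratios), under which 10 members were higher and 7 lower. As a whole the group therefore lay near the background, with a median of 0.34, beside 0.30 over all expressed genes. By role, the 13 expressed synthesis genes had a median of 0.09, with 5 called higher and 2 called lower, which is near the share over all expressed genes. The 15 expressed oxidation genes had a median of 0.52, with 8 called higher and 1 called lower, so that the synthesis median lay 0.43 below the oxidation median. The differences of both classes spread widely and overlapped, from -0.85 to 1.08 for synthesis and from -0.75 to 1.17 for oxidation, and no test of the distance between the medians was possible. A change of library scaling moves all genes nearly alike and so could hardly alter that distance, but it turned the sign of the synthesis median, which was -0.23 with TMM, -0.21 with the median difference of all expressed genes set to 0 and -0.25 with the libraries scaled to their upper quartile. The distance between the medians was -0.27 with the trend on GC content and length removed. The median transcript GC content was 53.1% for the synthesis genes, 49.6% for the oxidation genes and 52.9% for all expressed genes. By counting error alone, the CPM ratio lay wholly above 1 for 26 of the 41 genes and wholly below 1 for 11, and held 1 for 4. The same count was not made over all expressed genes, so it is no result about the members. Of those 10143 genes, 6523 had a difference above 0 and 3620 one below 0. Of the expressed members, ACACB, ACSL4 and CPT2 reached 1 FPKM in 1 library only.

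**Figure D1:**
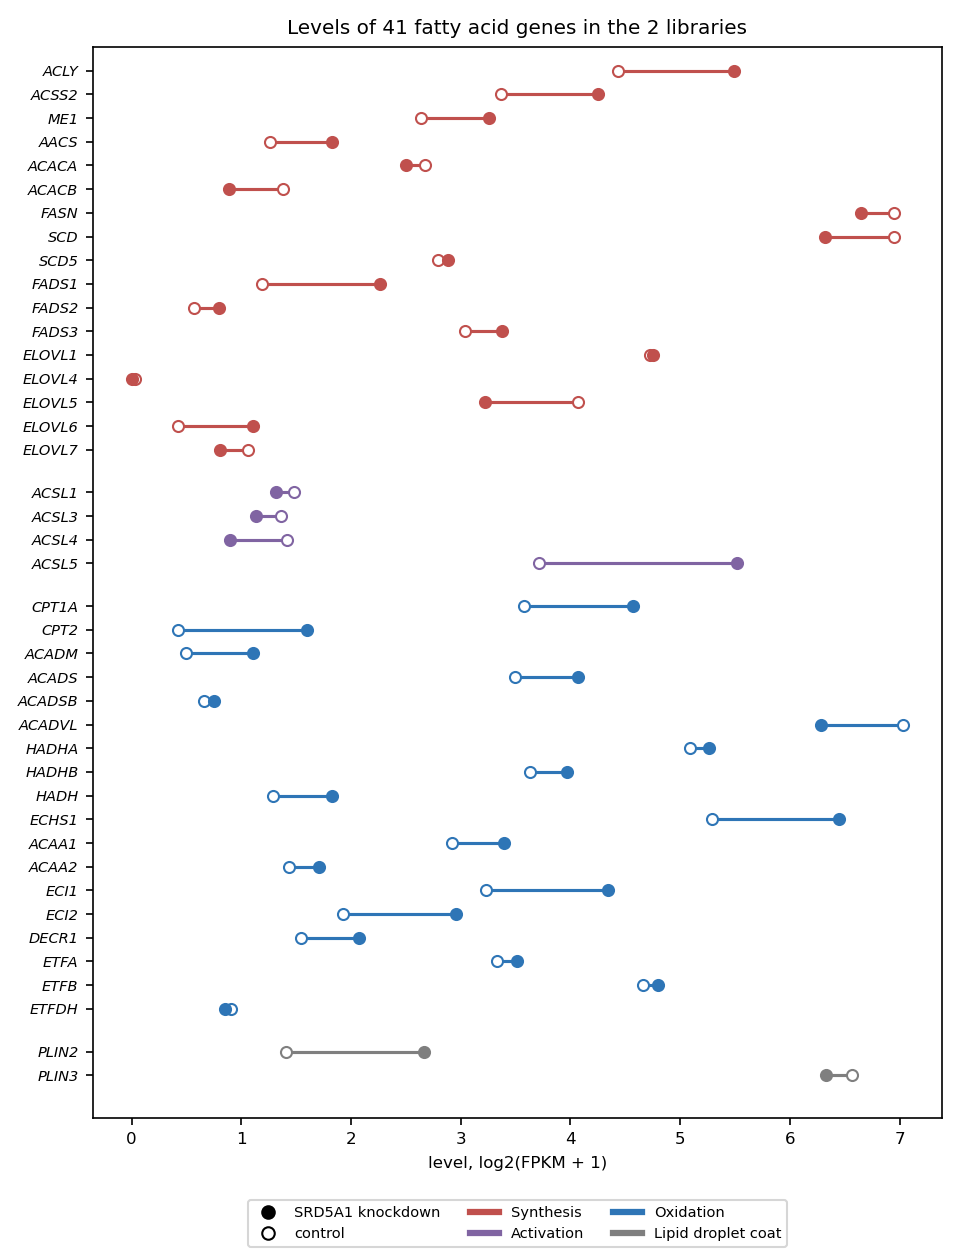
Levels of the 41 genes as log2(FPKM + 1), with filled points for the SRD5A1 knockdown library and open points for the control library, 1 library each, coloured by role. FASN, SCD and ACADVL are near the top of the range in both libraries and lower in the knockdown library, while ACLY, ACSL5, CPT1A and ECHS1 are higher in it.

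The genes that provide acetyl-CoA and NADPH were all higher in the knockdown library, where 40.8% of all expressed genes were called higher. ACLY, the ATP citrate lyase that cleaves citrate into acetyl-CoA (chromosome 17, 41866917 to 41930542), was at 44.0 FPKM (14988 counts) in the knockdown and 20.6 FPKM (5357 counts) in the control library, a difference of 1.06 and a CPM ratio of 2.14 (2.07 to 2.21). ACSS2, which makes acetyl-CoA from acetate, was at 18.0 FPKM in the knockdown, against 9.34 FPKM in the control library (difference 0.88, ratio 1.92, 1.84 to 2.02). The ratio of ACLY to ACSS2 was 2.44 in the knockdown, against 2.21 in the control library, so both sources of acetyl-CoA differed by similar factors. ME1, the malic enzyme that yields cytosolic NADPH, was at 8.56 FPKM in the knockdown and 5.21 FPKM in the control library (0.62). AACS, which activates acetoacetate for lipid synthesis, was at 2.54 FPKM in the knockdown, against 1.40 FPKM in the control library (0.56). With TMM, ME1 (0.30) and AACS (0.32) lay between the limits, while ACLY (0.70) and ACSS2 (0.53) stayed higher. The summed level of the 4 genes was 73.2 FPKM in the knockdown and 36.5 FPKM in the control library.

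The enzymes that use the acetyl-CoA did not go with them. FASN, the fatty acid synthase (chromosome 17, 82078338 to 82098294), was among the most abundant of the 41 genes, at 99.0 FPKM (60302 counts) in the knockdown and 123 FPKM (57097 counts) in the control library. Its difference was -0.31 and its CPM ratio 0.807 (0.798 to 0.816). ACACA, the main cytosolic acetyl-CoA carboxylase, was at 4.68 FPKM in the knockdown, against 5.36 FPKM in the control library (-0.17), and its sign turned with the trend on GC content and length removed (0.12). ACACB, the carboxylase form at the outer mitochondrial membrane, was at 0.850 FPKM in the knockdown, against 1.61 FPKM in the control library, a CPM ratio of 0.528 (0.483 to 0.578), and its difference of -0.50 lay just inside the limit. In the deposited scaling all 3 were below 0, and none passed the limit in either direction. With TMM, FASN (-0.68) and ACACB (-0.70) passed the limit of -0.5, and ACACA was at -0.48. FASN stayed inside the limit by CPM (-0.31) and with mitochondrial genes left out of the totals (-0.40). ACACB stayed inside it with the trend on GC content and length removed (-0.31). Because the ratio of 2 genes within a library does not depend on its scaling, the contrast with ACLY can be read directly. FASN stood at 2.25 times the level of ACLY in the knockdown library and at 5.96 times in the control library, whereas FASN over ACACA was 21.2 in the knockdown, against 22.9 in the control library.

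Among the desaturases, SCD and FADS1 went opposite ways. SCD, the stearoyl-CoA desaturase that makes oleate (chromosome 10, 100347233 to 100364826), was at 78.8 FPKM (26988 counts) in the knockdown and 122 FPKM (31977 counts) in the control library, a difference of -0.63 and a CPM ratio of 0.645 (0.634 to 0.655). FADS1, the delta-5 desaturase of polyunsaturated chains (chromosome 11, 61799625 to 61829318), was at 3.82 FPKM (2557 counts) in the knockdown, against 1.28 FPKM (659 counts) in the control library, a difference of 1.08 and a ratio of 2.96 (2.72 to 3.23). SCD5, the second stearoyl-CoA desaturase, was at 6.37 FPKM in the knockdown, against 5.91 FPKM in the control library (0.09). FADS3 was at 9.38 FPKM in the knockdown and 7.23 FPKM in the control library (0.33, and -0.02 with the upper quartile). FADS2, the delta-6 desaturase, was below the expression limit at 0.743 FPKM (515 counts) in the knockdown, against 0.484 FPKM (259 counts) in the control library. These 3 FADS genes are neighbours on chromosome 11, and FADS1 lies within the span of FADS2 on the opposite strand, with 490 bases of exons in common. FADS2 also shares 49 exon bases with FEN1, a DNA replication enzyme at 39.5 FPKM in the knockdown and 8.55 FPKM in the control library. The use of strand in counting is not given in the sources used here, so reads of FADS1 and FADS2 in their overlap cannot be told apart. FEN1 lies on the same strand as FADS2, where strand could not separate the reads.

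Of the elongases, ELOVL1 and ELOVL5 carried most of the family's level. ELOVL1, which extends saturated and monounsaturated very long chains, was at 25.9 FPKM in the knockdown and 25.5 FPKM in the control library, and its CPM ratio of 1.02 (0.971 to 1.06) held 1. ELOVL5, which extends polyunsaturated chains (chromosome 6, 53267398 to 53349179), was at 8.33 FPKM (2076 counts) in the knockdown, against 15.8 FPKM (3002 counts) in the control library, the lowest difference of the 34 expressed members (-0.85, ratio 0.528, 0.499 to 0.559). It made up 23.0% of the family's summed FPKM in the knockdown, against 36.9% in the control library. ELOVL6, which extends palmitate to stearate, went the other way at a low level, at 1.15 FPKM (551 counts) in the knockdown, against 0.342 FPKM (126 counts) in the control library (ratio 3.34, 2.75 to 4.09). ELOVL7 had 218 counts in the knockdown, against 242 in the control library (ratio 0.688), and ELOVL4 had 0 counts in the knockdown, against 4 in the control library. A count of 0 in the knockdown library allows up to 3 counts (0.0548 CPM, counts scaled to a common library total). None of these last 3 reached the expression limit.

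**Figure D2:**
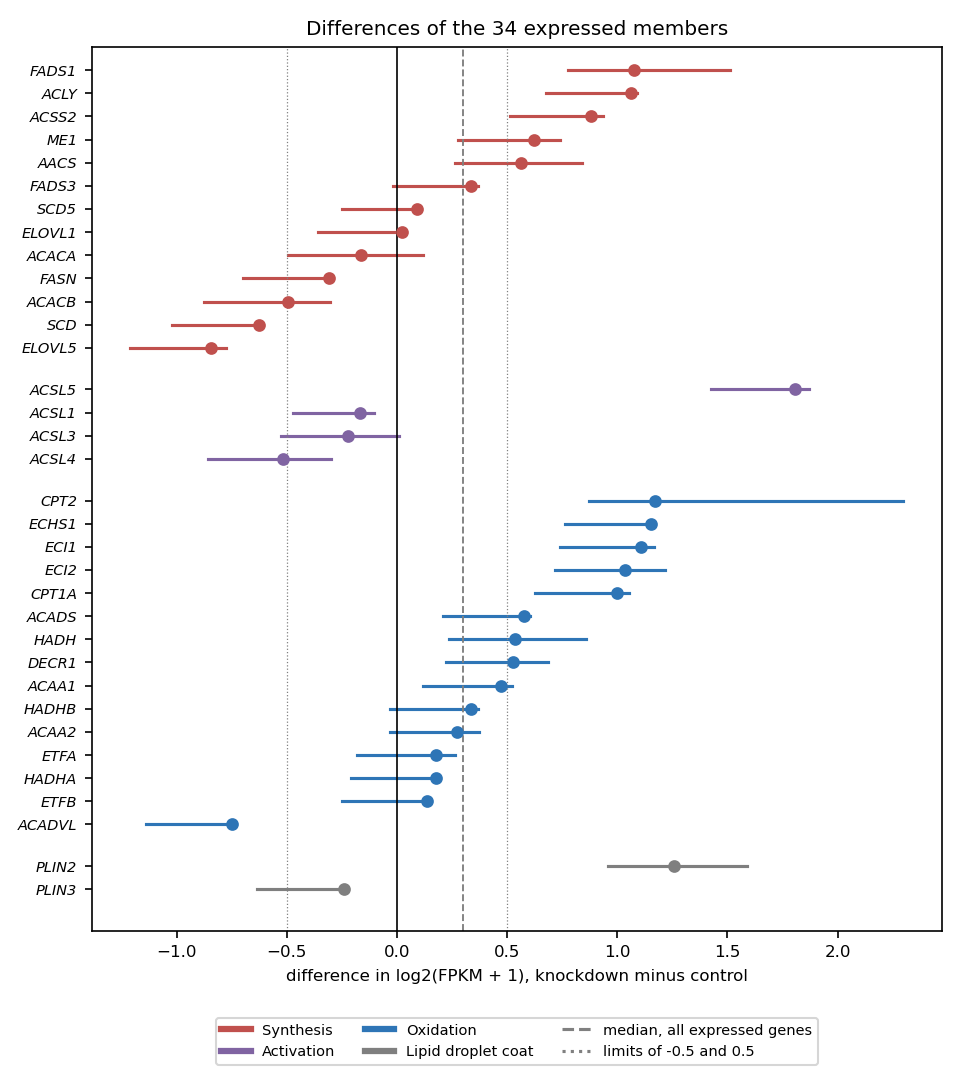
Difference in log2(FPKM + 1), knockdown minus control, of the 34 expressed genes (points), by role, with lines from the lowest to the highest value over 6 other scalings of the libraries and corrections. The dashed line is the median of all expressed genes (0.30) and the dotted lines are the limits of -0.5 and 0.5. ACSL5 lies farthest to the right (1.80), and the lines of 10 genes cross 0.

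Activation was dominated by 1 gene. ACSL5, a long-chain acyl-CoA synthetase of the intestine found on mitochondria and endoplasmic reticulum (chromosome 10, 112374018 to 112428380), was at 44.8 FPKM (12415 counts) in the knockdown and 12.1 FPKM (2564 counts) in the control library. Its CPM ratio was 3.70 (3.54 to 3.86). Its difference of 1.80 was the highest of the expressed members, and 94.9% of all expressed genes had a lower difference. The other 3 synthetases were below 0 in the deposited scaling. ACSL1 was at 1.49 FPKM in the knockdown, against 1.80 FPKM in the control library (-0.17), ACSL3, the synthetase of nascent lipid droplets, at 1.20 FPKM in the knockdown, against 1.56 FPKM in the control library (-0.22), and ACSL4, which prefers arachidonate, at 0.864 FPKM in the knockdown, against 1.67 FPKM in the control library (-0.52, ratio 0.516, 0.450 to 0.591). ACSL3 turned to 0.01 with the trend on GC content and length removed. ACSL4 reached 1 FPKM in the control library only. ACSL5 made up 92.7% of the summed FPKM of the 4 genes in the knockdown, against 70.7% in the control library. ACSL5 shares 144 exon bases with ZDHHC6 on the opposite strand, which had 2138 counts in the knockdown, against 1187 in the control library.

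**Figure D3:**
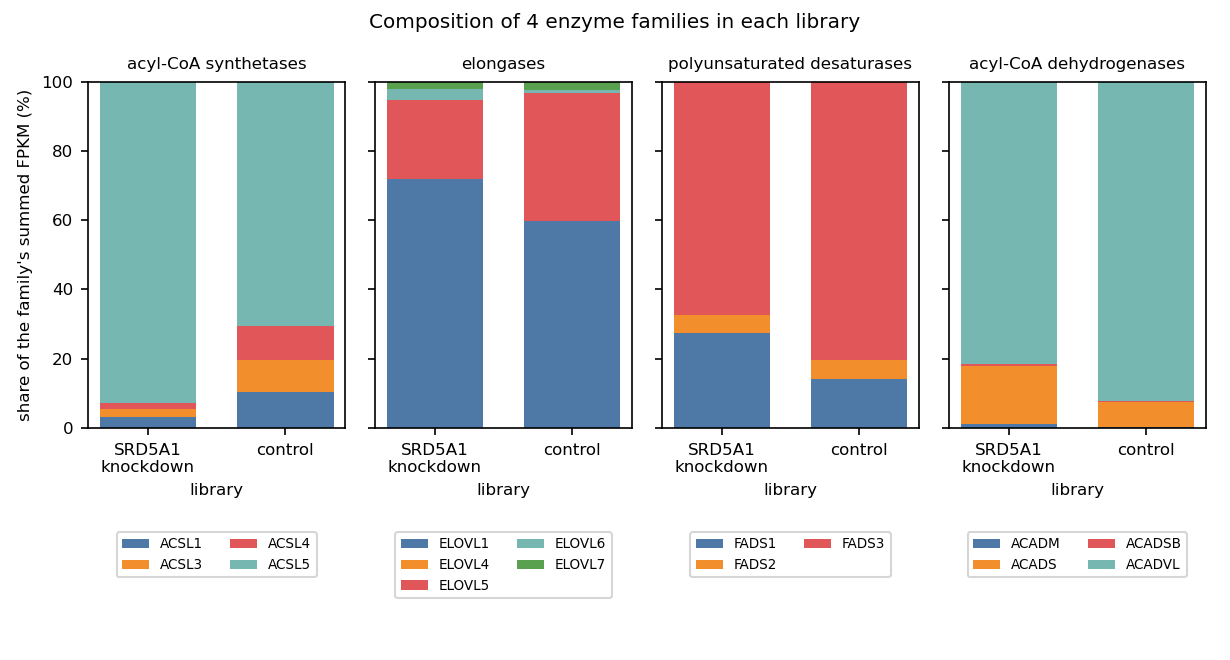
Share of each gene in the summed FPKM of its family (percent), with the SRD5A1 knockdown library as the left bar and the control library as the right bar of each panel. ACSL5 takes 92.7% of the acyl-CoA synthetases in the knockdown, against 70.7% in the control library, and ELOVL5 takes 23.0% and 36.9% of the elongases.

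Both carnitine palmitoyltransferases were higher in the knockdown library, as were 40.8% of all expressed genes. CPT1A, the malonyl-CoA-sensitive enzyme of the outer mitochondrial membrane and the entry point of long chains (chromosome 11, 68754620 to 68841931), was at 22.8 FPKM (9796 counts) in the knockdown and 10.9 FPKM (3584 counts) in the control library. Its CPM ratio was 2.09 (2.01 to 2.17), and its difference of 0.998 was just short of 2-fold. CPT2, the partner on the inner membrane, was at 2.02 FPKM (1335 counts) in the knockdown, against 0.341 FPKM (174 counts) in the control library, a difference of 1.17. It had the largest CPM ratio of the 41 genes, 5.86 (5.001 to 6.90). Its mean of 1.18 FPKM reached the expression limit through the knockdown library alone, so its call as higher partly follows from that limit. CPT2 shares 1151 exon bases with an antisense transcript that had 7 counts in the knockdown, against 0 in the control library. It also shares 99 exon bases with C1orf123 on the opposite strand, which had 1231 counts in the knockdown, against 548 in the control library. The level of CPT1A was 0.230 times that of FASN in the knockdown and 0.0890 times in the control library.

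The acyl-CoA dehydrogenases, which open each cycle for chains of different length, were divided. ACADVL, the enzyme of very long chains (chromosome 17, 7217125 to 7225266), was at 77.1 FPKM (24280 counts) in the knockdown and 130.0 FPKM (31286 counts) in the control library, a difference of -0.75 and a ratio of 0.593 (0.583 to 0.603). It was the only oxidation gene below -0.5. ACADS, for short chains, was at 15.7 FPKM in the knockdown, against 10.2 FPKM in the control library (0.58). ACADM, for medium chains, was below the expression limit, with 364 counts in the knockdown, against 102 in the control library (ratio 2.73, 2.18 to 3.43), and shares 157 exon bases with RABGGTB on the same strand (1023 counts in the knockdown, against 1022 in the control library). ACADSB, for short branched chains, was at 0.682 FPKM in the knockdown, against 0.580 FPKM in the control library, and its ratio of 1.17 (0.970 to 1.42) held 1. The ratios of the medium-chain and short-chain enzymes were thus above 1 and that of the abundant very-long-chain enzyme below it. ACADVL made up 81.4% of the family's summed FPKM in the knockdown, against 92.1% in the control library.

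For the later steps of the cycle, ECHS1 and HADH were higher in the knockdown library, while the other 4 genes lay between the limits. ECHS1, the short-chain enoyl-CoA hydratase (chromosome 10, 133362485 to 133373354), was at 86.0 FPKM (7179 counts) in the knockdown and 38.1 FPKM (2428 counts) in the control library, a difference of 1.15 and a ratio of 2.26 (2.16 to 2.37). HADH, the 3-hydroxyacyl-CoA dehydrogenase of shorter chains, was at 2.55 FPKM in the knockdown, against 1.45 FPKM in the control library (0.54). HADHA and HADHB, the alpha and beta subunits of the trifunctional protein, were at 37.5 and 14.7 FPKM in the knockdown and 33.0 and 11.4 FPKM in the control library. Their differences were 0.18 and 0.34, both turned sign with the upper quartile (-0.21 and -0.03), and the ratio of HADHA to HADHB was 2.56 in the knockdown, against 2.89 in the control library. The thiolases were also between the limits. ACAA1, the peroxisomal one, was at 9.48 FPKM in the knockdown, against 6.56 FPKM in the control library (0.47), and ACAA2, the mitochondrial one, at 2.27 FPKM in the knockdown, against 1.71 FPKM in the control library (0.27, and -0.03 with the median set to 0). ECHS1 stood at 1.12 times the FPKM of ACADVL in the knockdown and at 0.293 times in the control library. Per kilobase of the longest transcript these ratios were 0.430 in the knockdown, against 0.113 in the control library, so which of the 2 genes was higher within the knockdown library depended on the length used.

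All 3 auxiliary enzymes, which prepare unsaturated chains for the cycle, were higher in the knockdown library, beside 40.8% of all expressed genes. ECI1, a mitochondrial enoyl-CoA isomerase (chromosome 16, 2239402 to 2251591), was at 19.2 FPKM (4032 counts) in the knockdown and 8.402 FPKM (1347 counts) in the control library (1.11, ratio 2.29, 2.15 to 2.43). ECI2, the related isomerase of mitochondria and peroxisomes, was at 6.78 FPKM in the knockdown, against 2.79 FPKM in the control library (1.04, ratio 2.41, 2.21 to 2.64). DECR1, the 2,4-dienoyl-CoA reductase, was at 3.20 FPKM in the knockdown, against 1.92 FPKM in the control library (0.52). DECR1 lay between the limits with TMM (0.26) and with mitochondrial genes left out of the totals (0.48). ECI1 over ECI2 was 2.84 in the knockdown, against 3.01 in the control library, or 4.99 in the knockdown, against 5.27 in the control library, per kilobase of the longest transcript. ECI2 shares 1242 exon bases with C6orf201 on the opposite strand, which had 3 counts in the knockdown, against 0 in the control library.

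The electron transfer proteins, which pass electrons from the dehydrogenases to ubiquinone, lay close to 0. ETFA and ETFB, the subunits of the electron transfer flavoprotein, were at 10.4 and 26.8 FPKM in the knockdown and 9.06 and 24.3 FPKM in the control library, with differences of 0.18 and 0.13 that turned sign with the upper quartile (-0.18 and -0.25). Their ratio was 0.387 in the knockdown, against 0.372 in the control library. ETFDH, the dehydrogenase that receives the electrons, was at 0.803 FPKM (236 counts) in the knockdown, against 0.872 FPKM (197 counts) in the control library, and its CPM ratio of 0.915 (0.754 to 1.11) held 1. ETFDH shares 490 exon bases with PPID on the opposite strand, which had 1335 counts in the knockdown, against 452 in the control library.

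The perilipins parted. PLIN2, the coat protein whose abundance usually follows the lipid droplets of a cell (chromosome 9, 19108375 to 19149290), was at 5.35 FPKM (1754 counts) in the knockdown and 1.66 FPKM (417 counts) in the control library, a difference of 1.26 and a ratio of 3.21 (2.89 to 3.58). PLIN3, a more abundant coat protein that also occurs in the cytosol, was at 79.2 FPKM (14171 counts) in the knockdown, against 93.8 FPKM (12817 counts) in the control library, a difference of -0.24. PLIN3 stood at 14.8 times the FPKM of PLIN2 in the knockdown library and at 56.6 times in the control library, or, per kilobase of the longest transcript, at 6.83 times in the knockdown and 25.98 times in the control library.

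Which of these differences depend on the scaling of the libraries can be counted. Under 6 other scalings and corrections, 10 members were at 0.5 or more in every one, namely ACLY, ACSS2, FADS1, ACSL5, CPT1A, CPT2, ECHS1, ECI1, ECI2 and PLIN2. SCD, ELOVL5 and ACADVL were at -0.5 or less in every one. How many of all expressed genes pass the same rule was not counted, so these counts are no result about the members as a group. With TMM alone, 28.02% of all expressed genes were higher and 26.6% lower. The other 6 of the 19 members past a limit kept their sign, and 10 of the 34 expressed members, none of them past a limit, turned sign in at least 1 scaling. The number of members 2-fold higher was far more sensitive, at 8 in the deposited scaling and 1 with TMM, with the median set to 0 and with the upper quartile. The 2-fold share of all expressed genes was computed for the deposited scaling only.

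**Figure D4:**
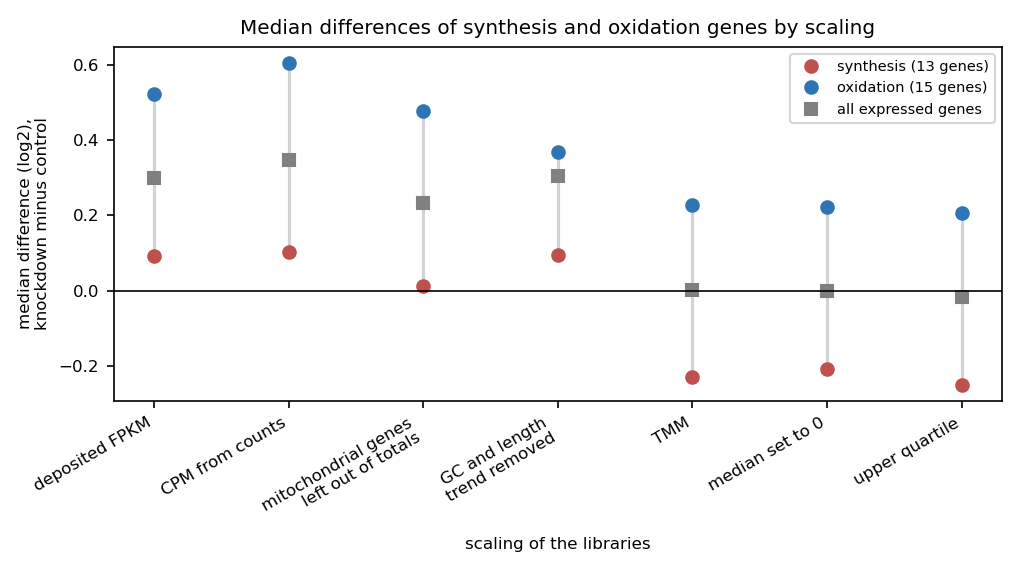
Median difference (log2, knockdown minus control) of the 13 expressed synthesis genes, the 15 expressed oxidation genes and all expressed genes under the deposited scaling and 6 alternatives. The distance between the oxidation and synthesis medians, 0.43 in the deposited scaling, is nearly fixed across the library scalings, which move all genes nearly alike, and the difference of synthesis minus oxidation is -0.27 with the trend on GC content and length removed, while the synthesis median is above 0 in some (0.09 in the deposited scaling) and below 0 in others (-0.25 with the upper quartile).

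Other genes of the same steps were taken from 4 further lists, whose counts stand beside the 40.8% higher and 16.3% lower over all expressed genes. Of 16 expressed other synthesis genes, 8 were called higher (50.0%) and 2 were called lower (12.5%), and the median was 0.43. MCAT, the malonyltransferase of the mitochondrial pathway, was at 15.5 FPKM in the knockdown and 2.50 FPKM in the control library (2.24), MID1IP1, an activator of acetyl-CoA carboxylase, at 31.5 FPKM in the knockdown, against 17.2 FPKM in the control library (0.84), and PGD, an NADPH-yielding enzyme of the pentose phosphate pathway, at 93.4 FPKM in the knockdown, against 55.1 FPKM in the control library (0.75). SREBF2, which encodes the SREBP form that mainly governs sterol genes, was at 19.8 FPKM in the knockdown and 52.9 FPKM in the control library (-1.38), SLC25A1, the mitochondrial citrate carrier, at 74.5 FPKM in the knockdown, against 91.1 FPKM in the control library (-0.29), and TECR, the last enzyme of the elongation cycle, at 34.8 FPKM in the knockdown, against 35.9 FPKM in the control library (-0.04). In the deposited scaling the carrier that exports citrate was thus on the other side of 0 from ACLY, the enzyme that cleaves it.

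Of 13 expressed genes of activation and uptake outside the 41, 8 were higher and 1 lower (61.5% and 7.69%, beside 40.8% and 16.3% over all expressed genes), and the median was 0.53. Among the 13, 2 reached 1 FPKM in 1 library only. The median was 0.42 at a mean of at least 5 FPKM and 0.32 with no filter on low values. SLC27A4, a fatty acid transport protein with acyl-CoA synthetase activity, was at 30.5 FPKM (6439 counts) in the knockdown and 4.76 FPKM (767 counts) in the control library, a difference of 2.45 that exceeds that of ACSL5. The acyl-CoA thioesterases ACOT9 and ACOT7 were at 1.14 and 0.52, while the fatty acid binding protein FABP5 (0.32), the acyl-CoA binding protein DBI (0.23) and the transporter SLC27A1 (-0.05) lay between the limits.

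For oxidation, the 21 expressed genes outside the 41 had a median of 0.63, beside 0.52 for the members, with 13 called higher and 2 called lower (61.9% and 9.52%, beside 40.8% and 16.3% over all expressed genes). Among the 21, 2 reached 1 FPKM in 1 library only. The median was 0.84 at a mean of at least 5 FPKM and 0.40 with no filter on low values. ACAD9, a dehydrogenase known for the assembly of respiratory complex I, was at 13.7 FPKM in the knockdown, against 3.20 FPKM in the control library (1.81). HSD17B10, a mitochondrial hydroxyacyl-CoA dehydrogenase, was at 0.63, and SLC25A20, the carnitine carrier between CPT1A and CPT2, at 13.99 FPKM in the knockdown, against 10.0 FPKM in the control library (0.44). PPARD, a nuclear receptor that drives oxidation genes, was at 20.1 FPKM in the knockdown and 29.05 FPKM in the control library (-0.51).

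In the storage and lipolysis list, 3 of 13 expressed genes were called higher and 4 were called lower (23.1% and 30.8%, beside 40.8% and 16.3% over all expressed genes). All 4 lower genes were 2-fold lower, beside 6.83% of all expressed genes. Of the 13 genes, 3 reached 1 FPKM in 1 library only, and at a mean of at least 5 FPKM only PNPLA2 was lower. The median was 0.12 and turned sign with TMM (-0.10), the median set to 0 (-0.18) and the upper quartile (-0.12). It was 0.27 at a mean of at least 5 FPKM. HILPDA, an inhibitor of the lipase PNPLA2, was at 12.7 FPKM in the knockdown and 5.19 FPKM in the control library (1.14), and PNPLA2 itself, which starts the breakdown of stored triglyceride, at 26.8 FPKM (6715 counts) in the knockdown, against 58.7 FPKM (11214 counts) in the control library, a difference of -1.10. BSCL2, the seipin of droplet assembly, was at 0.86, and DGAT1, a triglyceride-forming enzyme, at 0.40. FITM2 (0.11) and AGPAT2 (-0.24) lay between the limits.

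**Figure D5:**
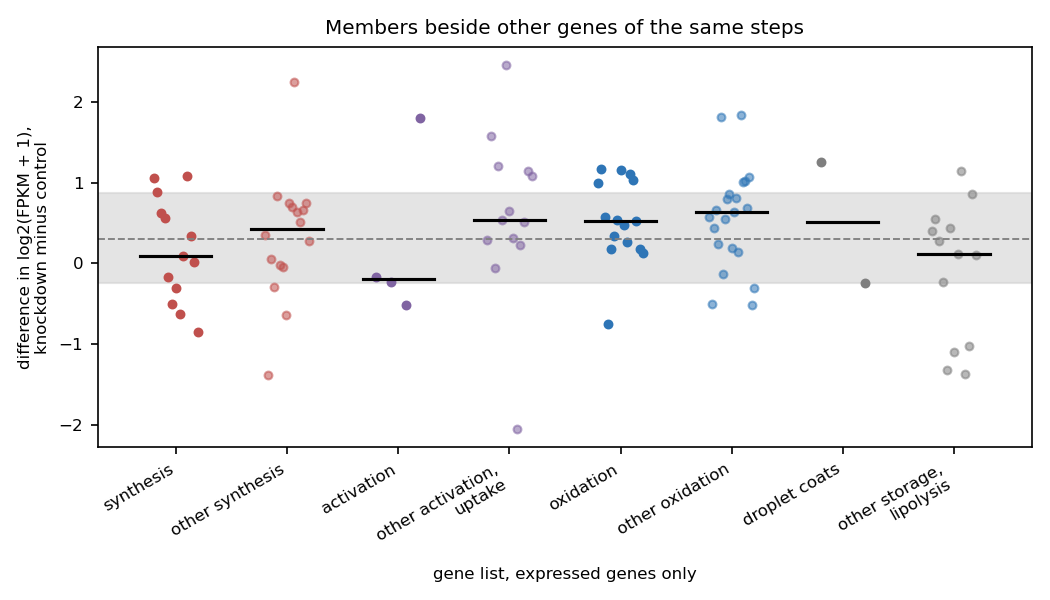
Difference in log2(FPKM + 1), knockdown minus control, of expressed genes (points) in the 4 classes of members and in the 4 lists of other genes of the same steps, with black bars at the medians. The dashed line and the grey band are the median (0.30) and the 25th to 75th percentiles (-0.24 to 0.87) of all expressed genes. The oxidation bars (0.52 and 0.63) lie above the dashed line, and the bar of the synthesis members (0.09) below it, while that of the other synthesis genes (0.43) lies above.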

How the data were processed

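RNA was sequenced from 1 SRD5A1 knockdown and 1 control library of HCT116. Per the file headers, the deposited table holds raw counts and FPKM for each gene, over 31798 rows. Bowtie 0.12.2, HISAT2 2.0 and StringTie 1.3.0 are named, without roles, in the submitters' processing notes, which also name the mouse build mm8. The identifiers are human, and 21912 of 31659 rows found in GENCODE 29 (GRCh38) have the same position there. No source used here states the counting program or its use of strand.

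With the summed counts as library size, the length implied by counts and FPKM was a median of 1.19 times the union of annotated exons. This covered 6350 genes with at least 500 counts in each library. The 5th to 95th percentiles were 1.14 to 1.22, against 1.19 to 2.84 for the longest transcript, so the implied length followed the union. The factor of 1.19 itself may lie in the length or in the library size used. Genes with many long transcripts thus have low FPKM beside other genes. The length used does not touch a gene's ratio between libraries.

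Rows were summed by symbol. Columns were matched to samples by the tags in the titles. Differences are in log2(FPKM + 1). Alternatives covered the pseudocount, CPM, scaling, TMM (edgeR 4.0.16), GC and length, filters and row choice, with Python 3.11.15 and SciPy 1.17.1. Steps were tested on simulated data. With 1 library per group no p-value was computed. Members and lists were chosen with earlier results of these data known. Of other genes, those named have a mean of at least 5 FPKM and the 3 highest or lowest differences of their list, overlapping genes were named for their overlap, and markers as their list. Some genes that this rule names are not reported here.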

Additional observations from a re-analysis of the deposited data

How the results depend on the processing

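No paired analysis was possible because each group held 1 library. Of 34 expressed members, 15 were higher and 4 lower in the deposited scaling, beside 40.8% and 16.3% of all expressed genes. The count of lower members was 7 with TMM, 8 with the median set to 0 and 7 with the upper quartile. Of all expressed genes, 26.6%, 26.6% and 27.4% were lower in these scalings, so the background moved as well. Members 2-fold higher numbered 8, against 1 with TMM, 1 with the median set to 0 and 1 with the upper quartile. Members 2-fold lower numbered 0, against 2 with TMM, 2 with the median set to 0, 3 with the upper quartile and 1 with the trend on GC content and length removed. In the deposited scaling 20.9% of all expressed genes were 2-fold higher and 6.83% 2-fold lower. Those shares were not computed for the other settings. At a mean of at least 5 FPKM, which 22 members reached, 8 were higher and 4 of these 2-fold higher, since fewer genes were counted. Of all genes at that level, 42.1% were higher. The synthesis median of 0.09 was -0.23 with TMM, -0.21 with the median set to 0 and -0.25 with the upper quartile, and that of the other storage and lipolysis genes, 0.12, was -0.10, -0.18 and -0.12. These 3 scalings set the middle of all genes near 0, where the deposited scaling has 0.30. The distance between the synthesis and oxidation medians ran from -0.51 with a pseudocount of 0.1 to -0.27 with the trend on GC content and length removed, which took up 6.499% of the variance of the differences. The spread between cultures is unknown, and the smallest count of an expressed member, 174 (CPT2 in the control library), limits only the counting error.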

Other observations

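The deposited annotation assigns genes to KEGG pathways, and 4 of these were read after the values had been seen. They share members with the genes above, so they are no separate evidence. Of 29 expressed genes of fatty acid degradation, 16 were higher and 3 lower in the knockdown library (median 0.55), beside 40.8% higher and 16.3% lower over all expressed genes. Of 9 expressed genes of fatty acid biosynthesis, 3 were higher and 1 lower (median -0.17), of 16 of fatty acid elongation 7 were higher and 2 lower (0.30), and of 16 of the biosynthesis of unsaturated fatty acids 6 were higher and 3 lower (0.16). These sets do not match the roles used above. The biosynthesis set holds synthetases counted above under activation, its median is the value of ACSL1, and its 1 lower gene is ACSL4. The elongation set holds ECHS1 and HADH, counted above under oxidation. The shares for elongation (43.75% and 12.5%) and for unsaturated fatty acids (37.5% and 18.75%) lie near those over all expressed genes.

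The order of levels between genes depends on the length used. Per kilobase of the longest annotated transcript in place of the deposited FPKM, a setting chosen after seeing the data, ACADVL ranked 1 of the 41 genes in the knockdown library, where it ranked 5 by FPKM, and ECHS1 ranked 5, where it ranked 2. In the control library ACADVL ranked 1 by both. For AACS the union of annotated exons was 2.42 times as long as the longest transcript, for PLIN2 2.58 times, for CPT2 2.30 times and for FADS1 2.26 times, while for SCD, ME1 and ECHS1 the 2 lengths were the same.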
